A study of Mus musculus with 2 samples.

Results

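Expression of 10 genes of MHC class I antigen presentation was compared between tumour-infiltrating M-MDSCs (monocytic myeloid-derived suppressor cells) of mice on a normal-salt diet (NSD) and on a high-salt diet (HSD). The genes were H2-K1, H2-D1, B2m, Nlrc5, Psmb8, Psmb9, Psmb10, Tap1, Tap2 and Tapbp, chosen by name from the class I pathway, and they were 10 of the 20653 genes that could be named on the arrays. Each gene was represented by every non-control probe annotated with one of its RefSeq transcripts, 12 probes in all. All 10 genes had a probe well above background on both arrays. Of these genes, 5 were at least 1.5-fold lower with HSD, namely Tap1, Psmb10, Nlrc5, Psmb9 and Psmb8, while the class I chains themselves (H2-K1, H2-D1 and B2m) differed by less than 1.5-fold.

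Female BALB/c mice (spelt BABL/c in the labels), 6 to 8 weeks old according to the methods, were injected subcutaneously with 1000000 cells of 4T1, a mammary carcinoma line derived from BALB/c mice. For 16 days the NSD mice received chow with 0.4% NaCl and tap water, and the HSD mice received chow with 4% NaCl and drinking water with 1% NaCl. All mice carried the tumour, and no genetic change was introduced in either group. M-MDSCs were isolated from the tumours on magnetic beads, equal numbers of cells were mixed within each diet, and each pool was hybridised, labelled with the dye Cy3, to 1 Agilent mouse array. With 1 array per diet there is no spread between mice and the diets could not be tested against each other, and precision is limited throughout by the number of arrays. In such pools of bulk RNA, fewer cells of a type and less RNA per cell cannot be told apart.

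Between 71.9% (NSD) and 72.4% (HSD) of the 39413 probes used were well above background, and 0 spots were saturated. Signals are processed intensities from the scanner software. Log2 fold changes are HSD over NSD after each array was divided by its own 75th percentile (252 for NSD and 233 for HSD). The ± beside a log2 fold change is the error that the software assigns to the spots and covers the measurement only, not mice or cell preparations. For a bright single spot it was close to 0.20. Over the 289 probes printed several times, the median SD between spots of a probe on the log2 scale was 0.082. The label of the cells was checked against marker genes. The brightest M-MDSC markers were Ly6c1 (51811 units with NSD and 48478 with HSD) and Itgam, which encodes CD11b (31564 and 31043). Both were far above background on both arrays. The dimmest of the 7 monocyte markers measured, Ccr2, had 259 units with NSD and 139 with HSD. Neutrophil granule genes were also bright, with 51766 and 51993 units for Ltf and 61817 and 59919 for Camp. Transcripts listed here as neutrophil markers were thus present in both pools as well. Their summed signal was above that of the monocyte markers on both arrays (234395 against 107509 units with NSD, 225241 against 102392 with HSD). The study also defines granulocytic myeloid-derived suppressor cells by CD11b, so Itgam does not tell monocytic from granulocytic cells.

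MHC class I molecules show peptides from inside the cell to CD8+ T cells. Proteins are cut by the proteasome, in which interferon can replace the constitutive catalytic subunits by those of the immunoproteasome. The TAP transporter carries the peptides into the endoplasmic reticulum, where tapasin and other chaperones load them onto a heavy chain bound to β2-microglobulin. NLRC5 is a transactivator of class I genes and acts with RFX factors at a conserved promoter module that includes the X2 box and the Y box.

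Promoter sequences are shown for the members that lie next to each other in the genome and for the chains, because these genes are known to be switched on together while their fold changes here were unequal. In mouse assembly GRCm38.p6, as annotated by RefSeq, Psmb9, Tap1, Psmb8 and Tap2 are consecutive genes between H2-DMb1 and H2-Ob. Psmb9 and Tap1 start on opposite strands across an interval of 225 bases. Promoters were the 250 bases before each start, present in the RefSeq table for 8 of the 10 genes and not for Tap2 and Nlrc5. Both strands were searched for the core of the interferon-stimulated response element (GAAANNGAAA), the interferon-gamma activated site (TTCNNNGAA), an X2-like box (TGANGTCA), the core of the Y box (ATTGG) and the consensus of NF-kappaB. Capitals mark every match. Sequences run in the direction of the gene, except for the interval, which runs in the direction of Tap1.
Psmb9-Tap1 interval, chr17:34187331-34187555, plus strand: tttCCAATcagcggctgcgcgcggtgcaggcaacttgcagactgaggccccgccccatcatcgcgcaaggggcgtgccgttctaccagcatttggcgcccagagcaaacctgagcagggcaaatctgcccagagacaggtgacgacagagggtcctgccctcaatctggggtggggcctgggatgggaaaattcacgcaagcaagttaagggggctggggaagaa
Psmb8, chr17:34197945-34198194, plus strand: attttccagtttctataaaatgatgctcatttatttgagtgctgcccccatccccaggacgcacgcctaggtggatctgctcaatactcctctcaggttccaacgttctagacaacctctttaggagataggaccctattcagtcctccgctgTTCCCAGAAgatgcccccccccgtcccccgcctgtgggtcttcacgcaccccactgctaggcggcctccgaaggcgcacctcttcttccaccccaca
B2m, chr2:122147437-122147686, plus strand: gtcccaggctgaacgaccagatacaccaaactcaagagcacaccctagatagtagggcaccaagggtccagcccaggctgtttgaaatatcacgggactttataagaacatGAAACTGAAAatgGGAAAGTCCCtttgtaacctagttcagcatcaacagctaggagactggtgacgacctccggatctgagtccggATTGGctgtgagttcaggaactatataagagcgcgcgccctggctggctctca
H2-K1, chr17:34000334-34000583, minus strand: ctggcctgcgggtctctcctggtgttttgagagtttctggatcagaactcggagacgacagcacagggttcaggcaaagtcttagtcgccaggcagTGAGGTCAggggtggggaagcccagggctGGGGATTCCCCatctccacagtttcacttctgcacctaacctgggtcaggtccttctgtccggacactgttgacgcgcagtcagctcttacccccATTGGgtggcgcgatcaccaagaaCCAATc
H2-D1, chr17:35262844-35263093, plus strand: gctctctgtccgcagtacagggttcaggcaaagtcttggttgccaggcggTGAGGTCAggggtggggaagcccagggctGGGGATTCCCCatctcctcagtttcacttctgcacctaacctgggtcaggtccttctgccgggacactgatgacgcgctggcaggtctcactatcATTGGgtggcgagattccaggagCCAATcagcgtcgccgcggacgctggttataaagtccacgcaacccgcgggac

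The windows of H2-K1 and H2-D1 shared an exact run of 47 bases. Both held a match to the X2-like letters, Y-box cores, and a stretch in which 2 NF-kappaB matches overlap (GGGGATTCCCC). In both windows the X2-like match lay further from the start than the NF-kappaB matches. In H2-D1 it lay 200 to 193 bases before the start, and the further Y-box core lay 76 to 72 bases before it. Whether the X2-like match is the X2 box of the module named above was not tested. The X2-like box was found in 7.49% of the 32851 promoters of the table, the Y-box core in 33.8% and the NF-kappaB consensus in 7.25%. The B2m window held the response element (GAAACTGAAA), which 2.98% of promoters had, 139 to 130 bases before the start, followed by an NF-kappaB match and a Y-box core. In the Psmb8 window the activated site TTCCCAGAA lay 97 to 89 bases before the start, and 7.02% of promoters had such a match. The interval between Psmb9 and Tap1 held a Y-box core only, next to the start of Psmb9. Of the promoters not shown, that of Tapbp held 2 Y-box cores and that of Psmb10 none of these letters. A match describes the letters of the reference sequence. Binding was not measured.

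The chains of the class I molecule stayed within 1.5-fold on every probe. H2-K1 encodes a classical heavy chain, and its brighter probe, printed as 10 spots per array, had a mean signal of 24550.4 units with NSD and 19434 with HSD. The NSD spots ran from 23436 to 26412 units with a median of 24537, and the 8 HSD spots used ran from 18567 to 20519 with a median of 19397. The spots of the arrays did not overlap before scaling, also with the 2 flagged HSD spots, the lowest of which had 16878 units. The HSD array was dimmer as a whole, with a 75th percentile of 233 units against 252 for NSD. How many other probes printed several times separated in this way was not counted. After scaling, the log2 fold change was -0.22 ± 0.068, so the probe was 1.17-fold lower with HSD. The second H2-K1 probe had 6171 units with NSD and 4042 with HSD, a log2 fold change of -0.50 ± 0.20, and stayed within 1.5-fold as well. H2-D1, the other classical heavy chain measured, had 12344 and 11379.9 units and a log2 fold change of -0.0030 ± 0.20, which was within its measurement error of no difference. B2m, the light chain shared by all class I molecules, had 27695 and 21399 units and was 1.20-fold lower (-0.26 ± 0.20). The heavy chains and B2m thus had values nearer to 0 than the immunoproteasome subunits and Tap1. BALB/c mice carry another H2 haplotype than the reference strain, class I heavy chains are near-identical in sequence, and the uptake of transcripts of related genes by the heavy-chain probes was not tested.

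Nlrc5, the class I transactivator, had 595 units with NSD and 305 with HSD on its brighter probe, a log2 fold change of -0.85 ± 0.20, or 1.80-fold lower. Its other probe had 23.05 and 23.34 units, both well above background but dim, and a log2 fold change of 0.13 ± 0.22. The value of the dim probe did not exceed its error, so its direction was not resolved. The call of this gene rested on the brighter probe.

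**Figure D1:**
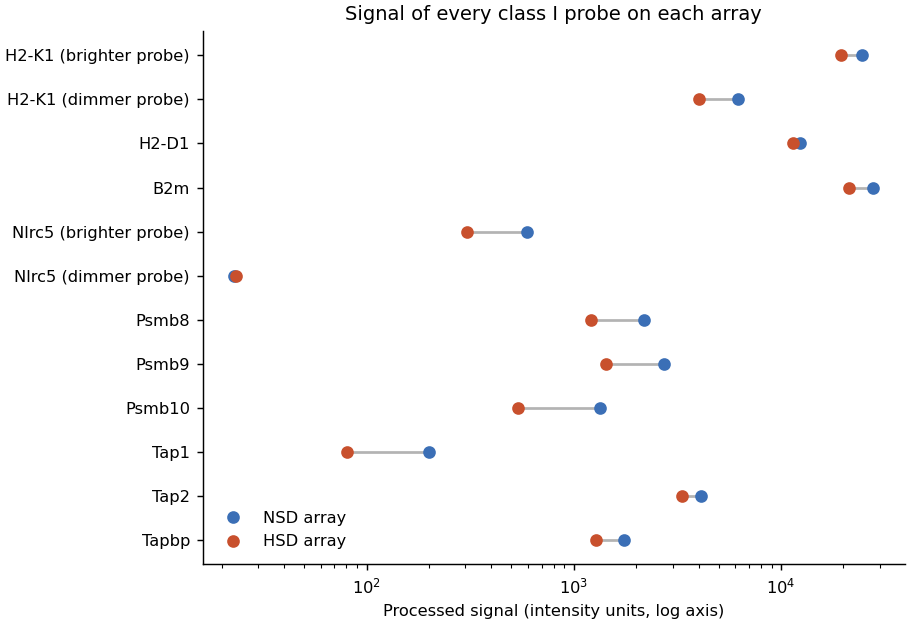
Processed signal (log axis, intensity units) of the 12 probes of the 10 class I genes on the array of NSD (blue) and that of HSD (orange), 1 point per array and probe. The HSD point lies left of the NSD point for every probe but the dim one of Nlrc5, with the widest gaps for Tap1 (199.9 and 80.1 units) and Psmb10 (1337 and 537 units). The signals are shown before scaling.

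All 3 catalytic subunits of the immunoproteasome were at least 1.5-fold lower with HSD. Psmb10, which encodes the subunit MECL-1, had 1337 units with NSD and 537 with HSD, a log2 fold change of -1.20 ± 0.20, or 2.30-fold lower. Psmb9 (LMP2) had 2721 and 1433 units and was 1.75-fold lower (-0.81 ± 0.20). Psmb8 (LMP7) had 2191 and 1215 units and was 1.67-fold lower (-0.74 ± 0.20). The values of Psmb9 and Psmb8 differed by less than their errors.

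Each of these subunits takes the place of a constitutive one, and the pairs were compared as a difference of log2 fold changes. Psmb5, the counterpart of Psmb8, had 8004 units with NSD and 6744 with HSD and a log2 fold change of -0.13, which was 0.11 on its second probe. Psmb7, the counterpart of Psmb10, had 213 and 157 units and a log2 fold change of -0.32. For both pairs the immunoproteasome subunit had the lower value, by a log2 difference of -0.60 ± 0.29 for Psmb8 and of -0.88 ± 0.29 for Psmb10. Psmb6, the counterpart of Psmb9, was itself 1.52-fold lower (8886 and 5411 units, -0.60), and the difference within this pair, -0.21 ± 0.29, did not exceed its error.

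The transporter genes differed from each other. Tap1 encodes one subunit of TAP and had, with Psmb10, the lowest value of the members, and these 2 genes differed by less than their errors. Its probe was printed as 10 spots per array, which ran from 189 to 215 units with a median of 199.5 for NSD and from 71.0 to 93.4 units with a median of 79.8 for HSD. Before scaling, no HSD spot reached the lowest NSD spot, and such separation was not counted over other probes. The log2 fold change was -1.21 ± 0.065, or 2.31-fold lower, against an SD between spots of 0.067 on the NSD and 0.11 on the HSD array. Tap2 encodes the other subunit of the same heterodimer and had 4123 and 3324 units, a log2 fold change of -0.20 ± 0.20 that did not exceed its measurement error. Tapbp, which encodes tapasin, had 1749 and 1282 units and was 1.26-fold lower (-0.33 ± 0.20). Psmb9, Tap1 and Psmb8 were thus past 1.5-fold, and Tap2, next to Psmb8 in the genome, was not.

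**Figure D2:**
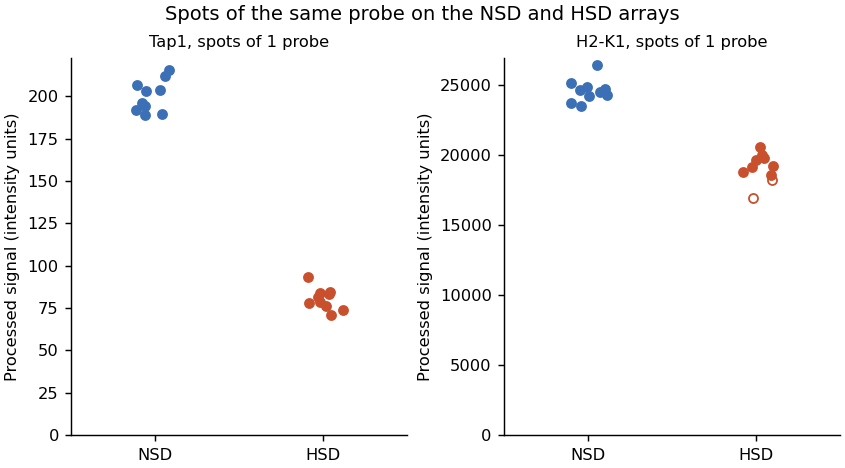
Processed signal (intensity units, axes from 0) of the single spots of the Tap1 probe and of the brighter H2-K1 probe on each array, 10 spots per array, with open circles for the 2 spots flagged as outliers. For both genes all HSD spots lie below all NSD spots before scaling, with medians of 79.8 and 199.5 units for Tap1. How many other probes separate in this way was not counted. Spots of 1 array are repeated measurements of the same RNA and not replicates of the diet.

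Over the 10 genes, the median log2 fold change was -0.54 (range -1.21 to -0.0030), beside 0.045 over the 16316 genes with a usable probe. All 10 had a value below 0, where 45.7% of all genes did. With the median in place of the 75th percentile for scaling, or after normexp background correction, H2-D1 had a value above 0 (0.0033 and 0.024) and 9 of 10 were below 0. At least 1.5-fold lower were 5 of 10 members, where 10.3% of all genes were, and at least 1.5-fold higher were 0 of 10, where 9.86% of all genes were. Of all genes, 2.94% had a lower value than Tap1, 2.95% than Psmb10, 5.69% than Nlrc5, 6.17% than Psmb9 and 7.19% than Psmb8. The other members lay further up, from 19.9% for Tapbp to 45.5% for H2-D1. Psmb8, Psmb9, Psmb10 and Tap1 were at least 1.5-fold lower under all 12 settings of the processing, the main one included (1 of the 12 changes only the threshold). Nlrc5 was so under 11, the exception being the median over its probes (-0.36). The filter on well measured probes and the lack of a filter could not change a member. The median over probes could not change a gene with a single probe, such as Psmb8, Psmb9, Psmb10 and Tap1. At a threshold of 2-fold, only Tap1 and Psmb10 were past it. After normexp, Tap1 moved to -0.78.

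**Figure D3:**
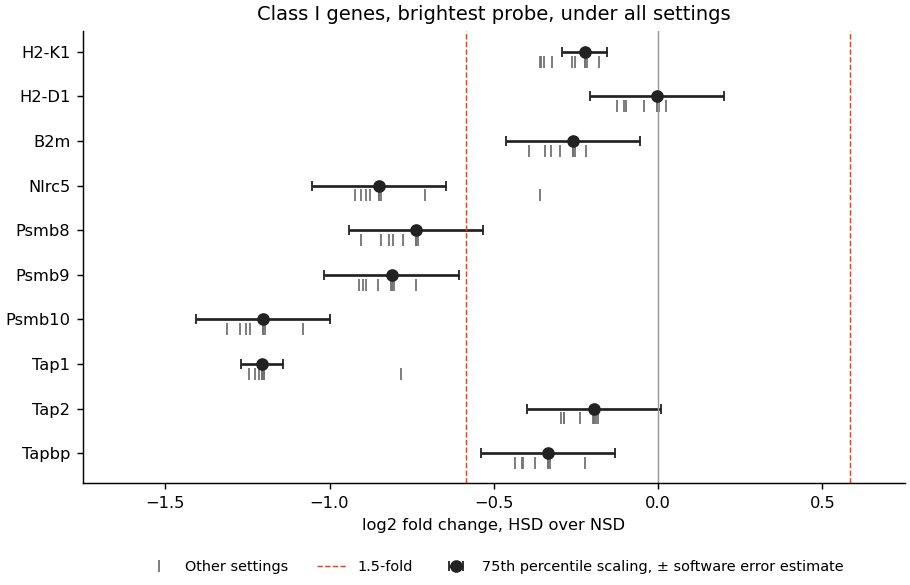
Log2 fold change (HSD over NSD) of the brightest probe of each of the 10 class I genes, with the software's error estimate as bar, and grey ticks for the same gene under the other settings. Dashed lines mark 1.5-fold. Tap1 and Psmb10 lie at -1.21 and -1.20 and H2-D1 at -0.0030, and the tick of Nlrc5 at -0.36 is the median over its 2 probes.

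Of 46 other genes of the pathway, 42 could be named and had a usable probe (H2-L, H2-M2, H2-T22 and H2-Bl were not analysed here). With HSD, 33 had a value below 0 and 9 above 0, where 45.7% of all genes were below 0. At least 1.5-fold lower were 8 (10.3% of all genes) and at least 1.5-fold higher 3 (9.86% of all genes), the latter a share near that of all genes. The median log2 fold change was -0.32. By group, the medians were -0.32 for 15 other heavy chains, -0.55 for 5 loading and trimming genes, -0.37 for 4 proteasome activator and assembly genes, -0.32 for 3 constitutive subunits, 0.12 for 4 cytosolic peptidases, -0.13 for 7 transcription factors and -0.24 for 4 interferon receptor genes.

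Of the other heavy chains, 12 of 15 had a value below 0. H2-M3, which presents formylated peptides, had 642 units with NSD and 291 with HSD and was 2.04-fold lower. H2-T24 had 1664 and 971 units and was 1.58-fold lower, with -0.93 on the log2 scale for its second probe. Mr1, which presents vitamin metabolites to MAIT cells, was dim with NSD (7.83 units) and not well above background with HSD, at least 1.64-fold lower. H2-T3 was the one heavy chain at least 1.5-fold higher, at the low signals of 10.2 and 15.9 units. The bright probes of H2-Q4, H2-Q6, H2-Q7, H2-T23 and H2-K2 had log2 fold changes between -0.39 and -0.28, and none of these genes was past 1.5-fold.

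Of the loading genes, Canx, which encodes the chaperone calnexin, had 1436 and 827 units and was 1.60-fold lower. Calr (calreticulin) and Erap1, which trims peptides in the endoplasmic reticulum, both stayed within 1.5-fold at a log2 fold change of -0.55, and Pdia3 had 0.018. The proteasome activator genes Psme1 and Psme2 had log2 fold changes of -0.24 and -0.49, and the second probe of Psme2 had -0.72. Psme3, which encodes another activator, had 1016 and 502 units and was 1.87-fold lower. The cytosolic peptidases were past 1.5-fold in both directions. Lap3 had 408 and 235 units and was 1.60-fold lower. Npepps, the puromycin-sensitive aminopeptidase, had 3069 and 5257 units and was 1.85-fold higher, with 0.85 on the log2 scale for its second probe, and Tpp2 was 1.51-fold higher (1129 and 1573 units). These peptidases shorten or destroy peptides in the cytosol.

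The transcription factors and receptors that act upstream of class I genes showed a mixed pattern. Irf1 had 6326 and 4533 units and a log2 fold change of -0.37, and Irf2 had 0.27. The RFX subunit genes Rfxank and Rfxap had -0.085 and 0.29, and Rfx5 was well above background with NSD only on its brighter probe, at 6.26 units. Ciita, the class II transactivator related to NLRC5, had -0.13. Of the interferon receptor genes, Ifngr1 had -0.52 and Ifngr2 0.41, Ifnar1 had -0.46 and Ifnar2 -0.026. None of the genes named in this group was past 1.5-fold.

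**Figure D4:**
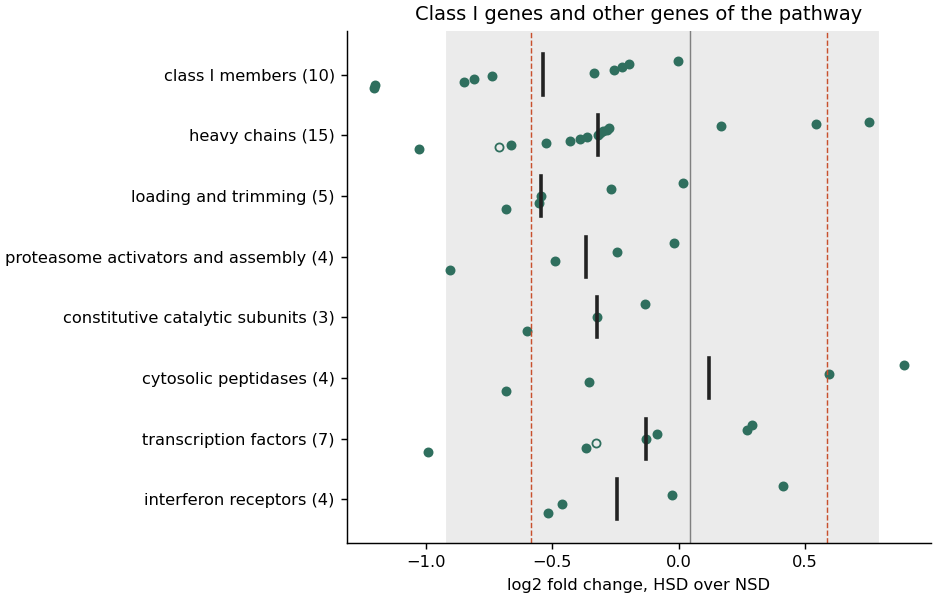
Log2 fold change (HSD over NSD, brightest probe) of the 10 class I genes and of the other pathway genes by group, 1 point per gene with the number of genes in brackets, open circles for values that are only a bound, and black bars for medians. Grey shading spans the 5th to the 95th percentile of all genes (-0.92 to 0.79), the grey line their median (0.045), and dashed lines 1.5-fold. The median of the class I genes is -0.54 and that of the cytosolic peptidases, with Npepps at 0.89, is 0.12.

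Markers of cell types that the isolated fraction could hold were measured on the same arrays. The 6 macrophage markers included 5 with a value below 0, where 45.7% of all genes were. They also included 4 at least 1.5-fold lower, where 10.3% of all genes were. Their median log2 fold change was -1.94 and their summed signal 7069 units with NSD and 4341 with HSD. Most of this sum came from Adgre1, which encodes F4/80 and had 6723 and 4252 units, 1.46-fold lower (-0.55) and within the threshold. The markers past 1.5-fold had low signals. Mrc1, the mannose receptor, had 134 and 5.49 units, Mertk 95.9 and 15.4 units, and C1qc 52.6 and 5.61 units. C1qa was not well above background with HSD, and C1qb (50.4 and 58.4 units) went the other way. The part of these macrophage transcripts in the class I values was not tested.

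The 7 monocyte markers had a median of 0.090 and summed signals of 107509 and 102392 units, with Ccr2, the chemokine receptor of inflammatory monocytes, 1.72-fold lower and Cd14 1.76-fold higher. The 7 neutrophil markers had a median of 0.069 and summed signals of 234395 and 225241 units, with Mpo alone past 1.5-fold (-0.92). Dendritic cell markers had a median of 0.14 (14715 and 14249.9 units), B cell markers of 0.40 (6131 and 7134 units), and T and NK cell markers of 0.059 (2661 and 2969 units), among which Cd3e was 2.13-fold lower. The 5 usable markers of 4T1 cells had a median of 0.61 at low summed signals (111 and 116 units), with Epcam (1.63-fold), Krt8 (1.53-fold) and Krt18 (1.70-fold) higher and Cdh1 at -0.43. Krt19 was well above background on neither array. The 5 usable fibroblast markers had a median of -0.55, near that of the class I genes, at summed signals of 167 and 144 units. Of these, Col3a1 (2.13-fold) and Dcn (1.75-fold) were at least 1.5-fold lower and Pdgfrb was 1.51-fold higher. Pdgfra was well above background on neither array. Endothelial (498 and 514 units) and erythroid markers (27890.1 and 24615 units) had medians of 0.12 and -0.24. The part of these cells in the class I values was not tested either.

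**Figure D5:**
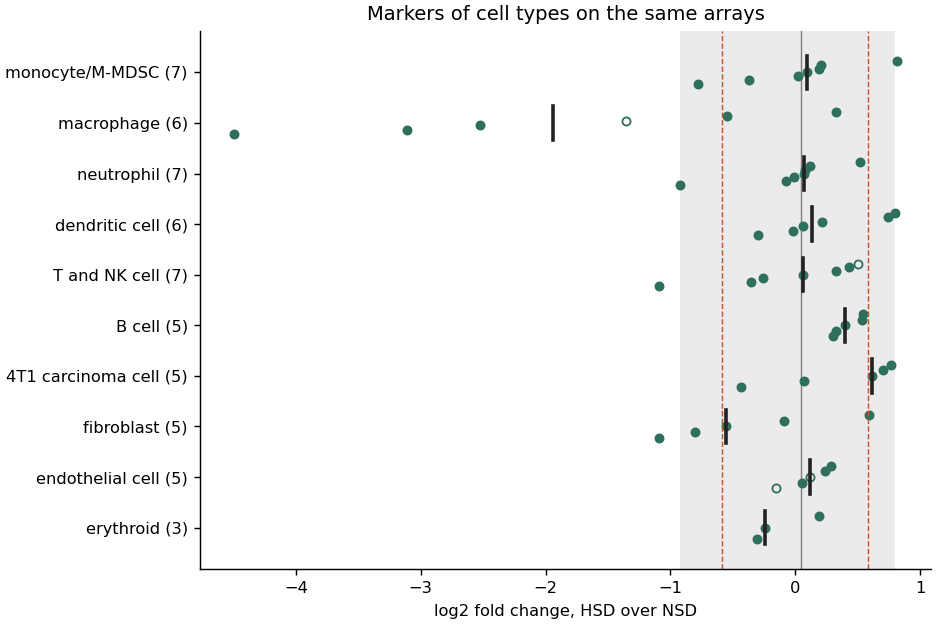
Log2 fold change (HSD over NSD, brightest probe) of the markers of 10 cell types on the same arrays, with points, bars, shading and lines as in the plot of pathway groups. Macrophage markers have the lowest median (-1.94, with Mrc1 at -4.50), and the median of the monocyte markers is 0.090.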

How the data were processed

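Per the labels, 1 M-MDSC pool of each diet was hybridised to 1 Agilent Mouse GE v2 array. The authors deposited scanner output of Feature Extraction 11.0.1.1, whose processed signal is a background-corrected intensity, not normalized between arrays. A second deposited table holds the same arrays as normalized values on the log2 scale, normalized in GeneSpring according to the study's reporting summary, without the method being named there. Both of its columns have a median of 4.61 and the same mean and upper percentiles, and 0 of its columns were left unused. It served as an alternative.

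Control spots and flagged spots were left out, spots of a probe were averaged on the log2 scale, and each array's 75th percentile over non-control probes was subtracted. A probe was usable if at least 50% of its spots on 1 or both arrays were well above background. If it was so on 1 array only, the fold is a bound, computed on the other array from its own signal there or the lowest signal well above background, whichever is higher. Genes were named by matching transcripts, without versions, to RefSeq (GRCm38.p6), which named 27223 probes. The design was annotated on mm9, so no coordinates of probes are given. Each gene took its brightest usable probe. The text names all 10 members with every probe, and of the pathway list the genes past 1.5-fold, the constitutive subunits and the transcription factors, while others serve as examples chosen after their values were seen. Some listed genes are not reported here by name. The members, the pathway list and the 10 marker lists were chosen with earlier results of these data known. Because each diet had 1 array, nothing was tested and no p-values are given. Simulated data were used to check the counting of fold changes.

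The alternatives were median scaling, the 75th percentile over well measured probes (well above background on both arrays), quantile normalization, cyclic loess, normexp (offset 50, on the median signals and the background intensities that the authors deposited), the deposited log2 values, flagged spots kept, the median over probes, a 2-fold threshold, a filter that kept only such well measured probes, and no filter. Python 3.11.15, numpy 2.4.6, pandas 2.3.3, matplotlib 3.10.9, R 4.3.3 and limma 3.58.1 were used.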

Additional observations from a re-analysis of the deposited data

How the results depend on the processing

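The count of 5 class I genes at least 1.5-fold lower became 2 with a 2-fold threshold, the median log2 fold change of the 10 genes became -0.36 with the median over probes, and that of the pathway list became -0.44 with cyclic loess. The other 39 values of these summaries moved by less than the spot noise or, for counts, by less than 1.5 times. Of the values of single members, 90 moved by less than the spot noise (0.116 on the log2 scale) and 10 by more. The 90 include all values under the filter on well measured probes and under no filter, which could not change a member. They also include the values under the median over probes for genes with a single probe, which could not change either. H2-D1 alone changed sign, at 0.0033 with median scaling and 0.024 with normexp. Over all genes, 1682 were at least 1.5-fold lower and 1609 higher. These counts were 655 and 625 with normexp, 681 and 428 with a 2-fold threshold, 2212 and 2903 without the filter on dim probes, and 1991 and 1244 with cyclic loess. No paired analysis was possible because each diet had 1 array, and no replicate could be left out. Dim probes, such as that of Mr1 and the second probe of Nlrc5, carry larger measurement errors than bright spots.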

Other observations

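Probes of the same gene did not always give the same value. Of the pathway genes, H2-Q10 had a log2 fold change of -0.43 on its brighter probe and -0.76 on its other probe, and Pomp had -0.017 and 0.20. Among the markers, Kdr, the receptor of VEGF, had 150.1 units with NSD and 169 with HSD on its brighter probe (0.28), but 124 and 20.4 units on a probe printed as 10 spots per array (-2.49 ± 0.068).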
